A study of Mus musculus with 17 samples.

Results

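The genes described are 10 claudin and epithelial adhesion genes, Cldn1, Cldn3, Cldn4, Cldn5, Cldn7, Cldn8, Epcam, Cdh1, Spint1 and Spint2, of the 30843 loci in the deposited expression table. They were taken by their symbols, and each had 1 locus with that symbol alone. The tissue was the whole mammary gland of C57Bl/6 female mice that were nulliparous, and polyadenylated RNA was sequenced by single-end and by paired-end reads. The WT group was wild type. The AROM group carried tet-op-CYP19A1 with MMTV-rtTA, a tetracycline-controlled transgene for aromatase, the enzyme that makes estrogens from androgens. The CERM group carried tet-op-Esr1 with MMTV-rtTA, the same system driving estrogen receptor alpha. The BRCA group had the genotype Brca1fl11/fl11/MMTV-Cre/p53+/-, in which Cre deletes exon 11 of both Brca1 alleles and 1 Trp53 allele is lost throughout. In all 3 models the rtTA or Cre is under the MMTV promoter, which acts mainly in mammary epithelium but not only there. Which cells it acted in here was not measured. The sources used here give no age, inducer or number of mice behind a library.

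Claudins are the membrane proteins that form the strands of tight junctions, and which claudins an epithelium makes sets how leaky its seal is. E-cadherin (Cdh1) holds neighbouring epithelial cells together at adherens junctions, and EpCAM (Epcam) binds claudin-7 and stabilises it at the cell surface. Spint1 and Spint2 encode the membrane-bound Kunitz inhibitors HAI-1 and HAI-2, which restrain the protease matriptase, an enzyme that can cleave EpCAM. In breast cancer, joint low expression of claudins 3, 4 and 7, E-cadherin and EpCAM defines the claudin-low subtype, and in the normal gland these genes are expressed mainly by luminal cells. Claudin-5 differs from the others in being the main claudin of blood vessel endothelium.

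The table holds 8 columns of FPKM, read fragments scaled to transcript length and to the number mapped, with 1 column for each genotype and read layout. The labels list 17 libraries, 2 single-end libraries for each genotype and 1 WT, 3 AROM, 3 CERM and 2 BRCA paired-end libraries. The way libraries were combined into a column is not stated. Differences between genotypes therefore stand without a measure of replicate error and without a test. In both WT columns many values ended in the decimals that averaging 3 numbers leaves (46.7% of the single-end and 43.4% of the paired-end values, at most 0.0681% in any other column), and the labels give 3 WT libraries over both layouts. Which WT libraries each column averages is therefore uncertain. The layouts are not independent either, since the labels' protocols say that libraries were sequenced both ways. The median absolute log2 difference between the layouts over 11408 genes was 0.057 in BRCA, 0.155 in WT, 0.16 in CERM and 0.29 in AROM. Sequencing depth is unknown. The genotype names are those of the columns. Esr1 in CERM was 1.17 times WT in the single-end and 1.22 times in the paired-end columns, and the same ratios were 1.16 and 1.14 in AROM, so over-expression of Esr1 in CERM was not evident. The mouse Cyp19a1 locus, which is not that of the human transgene, was at 0.0591 and 0.0502 FPKM in the AROM columns and listed at 0 in the other 6. Trp53 in BRCA was at 0.2995 and 0.352 of WT, and Brca1 at 2.90 and 3.87 times WT, a value over the whole locus that does not measure exon 11.

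A group that moved together closely was Cldn3, Cldn7, Epcam, Cdh1 and Spint2. These genes were lowest in AROM, intermediate in CERM, and near WT or above it in BRCA, except Spint2, which was lower in BRCA than in WT. Cldn3, a barrier-forming claudin and the most abundant claudin here, was at 92.1 FPKM (WT), 41.1 (AROM), 62.95 (CERM) and 99.3 (BRCA) in the single-end columns. In the paired-end columns Cldn3 was at 77.8 FPKM (WT), 25.8 (AROM), 45.7 (CERM) and 103.5 (BRCA). AROM thus held 0.447 of the WT level in the first layout and 0.332 in the second, and the order of the 4 genotypes was the same in both. The single-end and paired-end AROM values were further apart than those of any other genotype, for this gene and for most others described.

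Epcam followed the same order in both layouts. It was at 147 FPKM (WT), 73.3 (AROM), 97.9 (CERM) and 172.8 (BRCA) in the single-end columns, and at 123 FPKM (WT), 41.8 (AROM), 90.3 (CERM) and 170.3 (BRCA) in the paired-end ones. The single-end ratio of AROM to WT was 0.499, which on the log2(FPKM + 1) scale came to -0.99, just short of 2-fold. Cdh1 was at 55.4 FPKM (WT), 22.6 (AROM), 34.6 (CERM) and 58.1 (BRCA) in the single-end columns, and at 45.0004, 13.2, 30.2 and 59.3 FPKM in the paired-end ones in the same order. E-cadherin RNA in AROM was therefore 0.407 and 0.293 of WT, while BRCA stood at 1.05 and 1.32 times WT. Cldn7, the claudin that EpCAM binds, was at 38.3 FPKM (WT), 16.2 (AROM), 20.1 (CERM) and 38.02 (BRCA) with single-end reads. With paired-end reads it was at 32.8 FPKM (WT), 9.79 (AROM), 16.7 (CERM) and 37.2 (BRCA). Of this group Cldn7 was the lowest relative to WT in CERM, at 0.526 and 0.508, and its BRCA to WT ratio crossed 1, from 0.992 to 1.13. Across the 8 columns the pairwise Pearson correlations of log2(FPKM + 1) among these 5 genes lay between 0.94 and 0.995, a description of columns that share genotypes and layouts. The group was set by hand. Spint1, outside it, correlated with Epcam at 0.96, where Spint2 did at 0.94, and with Spint2 at 0.82.

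**Figure D1:**
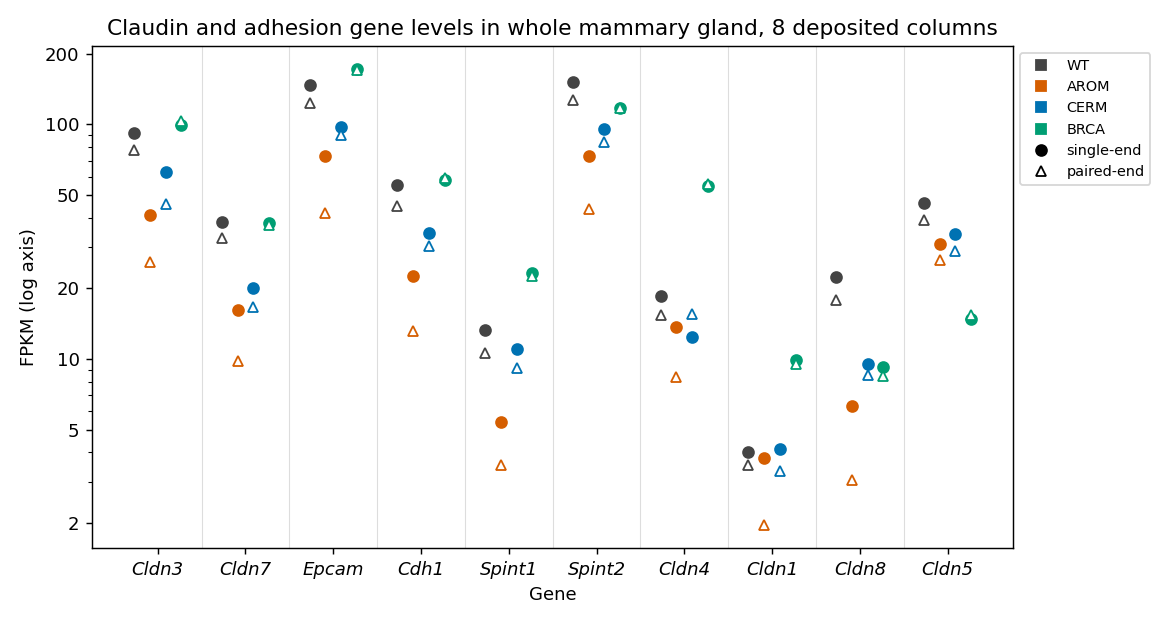
FPKM on a log axis for the 10 genes in the 8 deposited columns, with genotype by colour, filled circles for single-end and open triangles for paired-end columns; each point is 1 column and there are no error bars because no replicate values were used here. AROM gives the lowest point of 9 of 10 genes, the exception being Cldn5, and the BRCA circles and triangles nearly coincide.

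The 2 Kunitz inhibitor genes parted in BRCA. Spint1 was at 13.2 FPKM (WT), 5.41 (AROM), 11.02 (CERM) and 23.2 (BRCA) in the single-end columns, and at 10.6, 3.55, 9.13 and 22.5 FPKM in the paired-end ones. It was thus below WT in AROM (0.409 and 0.335) and above WT in BRCA (1.75 and 2.13 times). Spint2 was at 151.6 FPKM (WT), 73.2 (AROM), 95.2 (CERM) and 117.6 (BRCA) in the single-end columns, and at 126.8, 43.6, 84.3 and 117.6 FPKM in the paired-end ones. WT held the highest Spint2 level in both layouts, and BRCA was at 0.776 and 0.928 of it. The protease side was taken from a list of 16 genes of the matriptase and hepatocyte growth factor system, of which 11 passed the filter on low values, which asked for 1 FPKM or more in 2 or more of the 4 columns of a layout. St14, the matriptase gene, was at 34.0 FPKM (WT), 15.9 (AROM), 27.2 (CERM) and 42.3 (BRCA) with single-end reads, and at 28.7, 9.04, 22.02 and 43.4 FPKM with paired-end reads. Prss8, which encodes prostasin, a protease of the same pathway, was at 25.6 FPKM (WT), 8.15 (AROM), 16.6 (CERM) and 13.9 (BRCA) with single-end reads, and at 19.03, 4.77, 14.3 and 13.8 FPKM with paired-end reads. St14, Prss8 and both inhibitor RNAs were low in AROM, and in BRCA St14 and Spint1 were above WT while Prss8 and Spint2 were below it. Tmprss4, another membrane serine protease gene, was at 1.71 FPKM in WT and 0.251 in AROM with single-end reads. With paired-end reads Tmprss4 was at 1.26 and 0.145 FPKM, a log2(FPKM + 1) ratio of -0.98, just short of 2-fold. These 3 protease genes were the ones 2-fold lower among the 11 with single-end reads (1.7% of all genes tested). With paired-end reads 2 were, St14 and Prss8 (2.83%), and none was 2-fold higher in either layout (2.39% and 2.04%). The list median in AROM against WT was -0.12 and -0.45. In each layout 3 of the 11 were above WT, with Mst1r at 1.68 and 2.23 times.

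Cldn4 and Cldn1 had a different shape, being higher in BRCA than in the other genotypes. Cldn4, a claudin of tight seals, was at 54.9 FPKM in BRCA against 18.5 in WT, 13.6 in AROM and 12.4 in CERM in the single-end columns. In the paired-end columns it was at 55.9 FPKM in BRCA, 15.4 in WT, 8.39 in AROM and 15.6 in CERM. BRCA stood clear of the other 3 genotypes in both layouts, at 2.96 and 3.62 times WT, and these were the highest ratios to WT of any of the 10 genes. The order of the other 3 was not stable, since AROM was above CERM in one layout and below it in the other. Cldn1, which seals the epidermis and is found in many epithelia, was at 9.92 FPKM in BRCA, 4.03 in WT, 3.77 in AROM and 4.13 in CERM with single-end reads. With paired-end reads Cldn1 was at 9.48 FPKM in BRCA, 3.52 in WT, 1.95 in AROM and 3.32 in CERM. It was the least abundant of the 10 genes in every WT, AROM and CERM column (Cldn8 was lower in BRCA), and WT, AROM and CERM lay close together with single-end reads while AROM was the lowest with paired-end reads. The correlation of Cldn1 with Cldn4 over the 8 columns was 0.97, against 0.79 for Cldn3 with Cldn4.

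Cldn3 and Cldn4 are neighbours on mouse chromosome 5, transcribed in opposite directions from start sites 39280 bases apart in build GRCm38.p6, a later build than the mm9 of the files. Their BRCA to WT ratios nevertheless differed, 1.08 for Cldn3 and 2.96 for Cldn4 with single-end reads, 1.33 and 3.62 with paired-end reads. Promoter sequences from RefSeq (build GRCm38.p6, 250 bases before to 50 after the start of transcription) were found for 8 of the 10 genes, in 9 promoters. Cdh1 and Cldn8 had none, so the E-cadherin promoter itself was not searched. The 9 promoters are those meant below. They were searched on both strands for CACCTG, the E-box that Snail and Zeb repressors of E-cadherin recognise, for AACCGGTT, a grainyhead-like site, and for GGGCGG, the GC box of Sp factors. The E-box letters were in 5 of the 9 promoters, against 20.2% of all 32851 promoters of this length, and 4 of the 9 held at least 2 copies, against 2.88% of all. The GC box was in 8 of the 9, against 35.7% of all, and the grainyhead-like letters were in none, against 0.146% of all. The E-box promoters belong to Cldn3, Cldn4, Cldn7, Epcam and Spint2, and none was in those of Cldn1, Cldn5, Spint1 or the upstream start of Cldn7. A match is a description of the letters and not evidence of binding. Of the E-box genes, Cldn3, Cldn7, Epcam and Spint2 were low together in AROM. The remaining E-box gene, Cldn4, was at 0.736 and 0.544 of WT there and was not 2-fold lower in either layout. Spint1, without the E-box, was low in AROM too (0.409 and 0.335 of WT). The 5 promoters with the E-box are printed 5′ to 3′ on the gene's own strand with its letters in capitals, because they include the neighbouring pair that differed in BRCA. They lie at chr5:134985964-134986263 on the plus strand (Cldn3), chr5:134946885-134947184 on the minus strand (Cldn4), chr11:69965171-69965470 on the plus strand (Cldn7), chr17:87635729-87636028 on the plus strand (Epcam) and chr7:29281928-29282227 on the minus strand (Spint2).
Cldn3: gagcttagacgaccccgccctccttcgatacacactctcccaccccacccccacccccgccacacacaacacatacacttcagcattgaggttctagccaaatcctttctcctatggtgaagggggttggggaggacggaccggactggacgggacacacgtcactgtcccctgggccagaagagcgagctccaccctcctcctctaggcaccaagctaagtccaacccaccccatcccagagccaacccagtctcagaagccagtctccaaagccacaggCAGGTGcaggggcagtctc
Cldn4: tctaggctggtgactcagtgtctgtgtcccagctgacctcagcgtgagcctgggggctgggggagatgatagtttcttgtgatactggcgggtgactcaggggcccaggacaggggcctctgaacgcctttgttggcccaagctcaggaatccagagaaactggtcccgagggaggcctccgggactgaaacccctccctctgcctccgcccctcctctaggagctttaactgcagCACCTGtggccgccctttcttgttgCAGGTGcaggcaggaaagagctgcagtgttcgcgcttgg
Cldn7: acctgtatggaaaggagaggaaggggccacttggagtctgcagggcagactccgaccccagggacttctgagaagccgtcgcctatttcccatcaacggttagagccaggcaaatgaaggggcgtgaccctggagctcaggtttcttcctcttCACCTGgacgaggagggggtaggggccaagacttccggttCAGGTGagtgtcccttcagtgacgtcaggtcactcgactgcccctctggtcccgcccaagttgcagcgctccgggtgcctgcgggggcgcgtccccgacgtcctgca
Epcam: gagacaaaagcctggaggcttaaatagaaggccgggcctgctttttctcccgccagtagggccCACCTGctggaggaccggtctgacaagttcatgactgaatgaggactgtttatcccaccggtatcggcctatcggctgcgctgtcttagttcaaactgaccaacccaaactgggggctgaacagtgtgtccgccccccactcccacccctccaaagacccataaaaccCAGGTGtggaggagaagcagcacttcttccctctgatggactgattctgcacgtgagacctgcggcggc
Spint2: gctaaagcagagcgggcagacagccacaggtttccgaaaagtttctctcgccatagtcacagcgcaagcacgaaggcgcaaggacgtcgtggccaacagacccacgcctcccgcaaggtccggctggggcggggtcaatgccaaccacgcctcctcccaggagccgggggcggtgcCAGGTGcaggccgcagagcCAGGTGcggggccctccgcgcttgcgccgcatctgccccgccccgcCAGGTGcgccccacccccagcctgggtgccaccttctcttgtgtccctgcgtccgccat
Counted from the start of transcription, the E-box letters began at positions -14 and 12 in Cldn4 and at 32 in Cldn3. In Cldn7 they began at -97 and -57, in Epcam at -187 and -19, and in Spint2 at -74, -55 and -9.

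Cldn8, a claudin of the kidney's distal nephron and of other tight epithelia that pairs with claudin-4, was highest in WT. It was at 22.3 FPKM (WT), 6.31 (AROM), 9.48 (CERM) and 9.29 (BRCA) in the single-end columns. In the paired-end columns Cldn8 was at 17.9 FPKM (WT), 3.06 (AROM), 8.55 (CERM) and 8.49 (BRCA). CERM and BRCA were nearly equal in both layouts, with BRCA at 0.98 and 0.993 of CERM, and AROM was the lowest, at 0.283 and 0.171 of WT. Cldn8 in BRCA was at 0.416 and 0.474 of WT, where Cldn4 was above WT. No other of the 10 genes was lower relative to WT in AROM.

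Cldn5 was lowest in BRCA. It was at 46.04 FPKM (WT), 31.07 (AROM), 34.2 (CERM) and 14.8 (BRCA) with single-end reads, and at 39.3, 26.5, 28.8 and 15.4 FPKM with paired-end reads. BRCA was at 0.321 and 0.391 of WT, and AROM and CERM lay between them in both layouts. Because claudin-5 belongs to endothelium, 16 endothelial genes were examined with it, of which 15 had a locus of their own and passed the filter. In BRCA against WT none of the 15 was 2-fold lower in either layout, where 1.94% and 1.29% of all genes tested were. Plvap, which encodes a protein of capillary fenestrae, was 2-fold higher with paired-end reads (71.4 FPKM against 31.3), as were 4.36% of all genes tested. The median log2 ratio of the 15 was -0.30 with single-end and -0.24 with paired-end reads, against -1.58 and -1.30 for Cldn5. The lowest endothelial gene was Kdr, the VEGF receptor 2 gene, at 13.1 FPKM in BRCA against 23.5 in WT and at 12.5 against 22.4, a ratio of 0.557 in both layouts. Vwf, the von Willebrand factor gene, was above WT, at 1.19 and 1.69 times, and Egfl7 was at 0.707 and 0.822 of WT. The summed FPKM of the 15 endothelial genes was 336.7 in WT and 320.0 in BRCA with single-end reads, and 292.5 and 315 with paired-end reads. Cldn5 in BRCA was thus lower than every one of the 15 by ratio to WT. The endothelial genes in AROM and CERM had none past 2-fold against WT in either layout. Over all genes tested, 1.7% and 2.83% were lower and 2.39% and 2.04% higher in AROM. For CERM the shares were 0.999% and 0.824% lower and 3.34% and 3.51% higher.

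**Figure D2:**
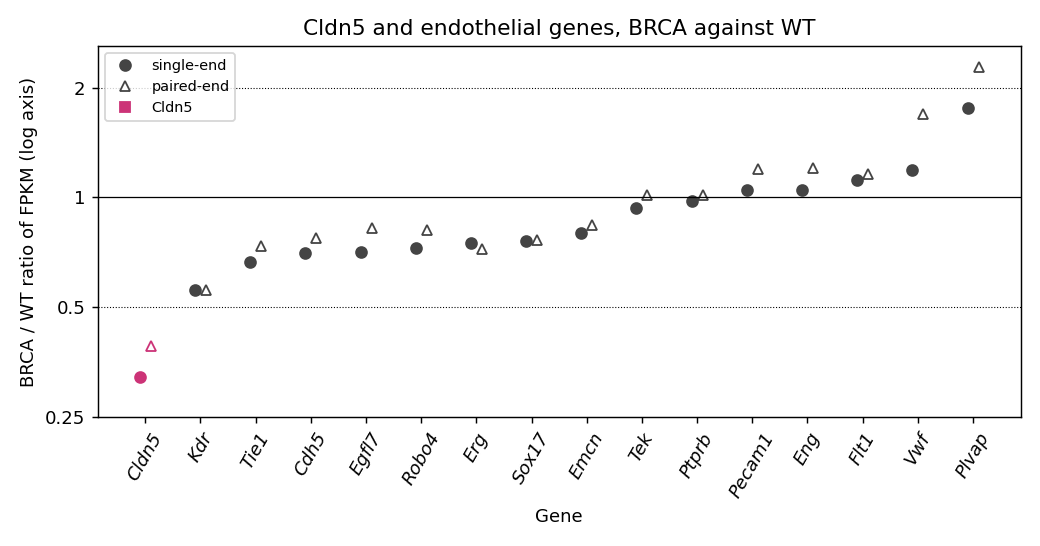
Ratio of FPKM in BRCA to WT on a log axis for Cldn5 (coloured) and 15 endothelial genes, ordered by the single-end ratio; circles are single-end and triangles paired-end columns, with dotted lines at 2-fold. Cldn5 stands at 0.321 and 0.391, below Kdr at 0.557.

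Calls were made at 2-fold or more on the log2(FPKM + 1) scale, which understates the ratio of low genes, and all 10 genes passed the filter in both layouts. In AROM against WT, 6 of 10 were 2-fold lower in the single-end columns, where 1.7% of 11715 genes tested were, and 7 of 10 in the paired-end columns, where 2.83% of 11535 were. No member of the group was 2-fold higher (2.39% and 2.04% of genes tested, 0.377% in both layouts). Cldn3, Cldn7, Cldn8, Cdh1, Spint1 and Spint2 were lower in both layouts, a pattern met by 1.34% of the 11408 genes tested in both. Over the 10 the log2 ratio had a median of -1.09 with single-end and -1.53 with paired-end reads, beside -0.00048 and -0.08 over all genes tested. The genes nearest the threshold were Spint2 at -1.04 and Epcam at -0.99 with single-end reads. Fewer epithelial cells and less RNA per epithelial cell cannot be told apart in whole-gland RNA.

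In CERM against WT, Cldn8 alone was 2-fold lower with single-end reads (0.999% of genes tested), at -1.15, and none of the 10 with paired-end reads (0.824%), where Cldn8 was at -0.98. No gene of the 10 was 2-fold higher in either layout (3.34% and 3.51%), and none was called in both layouts (0.368% of genes lower, 0.771% higher). The median of the 10 was -0.56 and -0.50, beside -0.05 and 0.04 over all genes tested. Thus 9 of 10 lay below 0 in each layout, where 6691 of 11715 and 5028 of 11535 genes tested did. The exception was Cldn1 (0.03) in the first and Cldn4 (0.01) in the second. Both values near 0 changed sign with the scaling, Cldn1 to -0.0049 (log2) under quantile normalization and Cldn4 to -0.04 under median-ratio scaling.

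In BRCA against WT, Cldn1 and Cldn4 were 2-fold higher with single-end reads (2.97% of genes tested), and Spint1 joined them with paired-end reads (4.36%). Cldn5 and Cldn8 were 2-fold lower with single-end reads (1.94%), and Cldn5 with paired-end reads (1.29%), where Cldn8 was at -0.99. Higher in both layouts were Cldn1 and Cldn4, as were 2.38% of the genes tested in both, and lower in both was Cldn5, as were 1.03%. Spint1 was near the threshold with paired-end reads, at 1.02, and stood at 0.90 under median-ratio scaling. The median of the 10 was 0.09 and 0.40, beside 0.04 and 0.10 over all genes tested, and in the single-end columns the 2 medians were close.

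Among the 3 models, BRCA and AROM were furthest apart. In BRCA against AROM, 7 of 10 were 2-fold higher with single-end reads (4.68% of genes tested) and 9 of 10 with paired-end reads (9.97%). Cldn5 was 2-fold lower with single-end reads (3.13%) and at -0.75 with paired-end reads, where none of the 10 was 2-fold lower (4.5%). The median of the 10 was 1.21 and 1.89, beside 0.02 and 0.21 over all genes tested. In both layouts 7 of the 10 were higher, as were 4.15% of genes, and none was lower (1.45%). The ratio was largest for Cldn4, 4.03 and 6.66, and Spint1, 4.28 and 6.35. In BRCA against CERM, Cldn1, Cldn4 and Spint1 were 2-fold higher with single-end reads (2.37%) and these with Cldn3 and Cldn7 with paired-end reads (2.3%). Cldn5 was 2-fold lower with single-end reads (2.79%), at -1.16, and none with paired-end reads (2.12%), where Cldn5 was at -0.87. Cldn1, Cldn4 and Spint1 were higher in both layouts, as were 1.3% of genes, and none of the 10 was lower in both (0.982%). The single-end value of Spint1, 1.01, went below the threshold under median-ratio scaling (0.94) and quantile normalization (0.993). In AROM against CERM none of the 10 was 2-fold apart with single-end reads (1.46% of genes tested were lower and 0.819% higher), with a median of -0.39. With paired-end reads Cldn8, Epcam, Cdh1 and Spint1 were 2-fold lower in AROM (3.83%), 2.29% of genes and none of the 10 were 2-fold higher, and the 10 had a median of -0.88 beside -0.18 over all genes. Of these 4 calls, Cldn8 and Spint1 remained under median-ratio scaling, Epcam and Cdh1 under quantile normalization, and none under both. No gene of the 10 was called in both layouts (0.991% of genes lower, 0.202% higher). These comparisons share columns, so their values are not independent of each other. The paired-end AROM column was low over many genes: its median log2 difference from the single-end AROM column was -0.24 over 11408 genes and -0.68 over the 10, against -0.13 and -0.25 in WT. Yet its FPKM over all loci summed to 1.2e+08, against 4.26e+06 (WT), 4.32e+06 (CERM) and 6.24e+06 (BRCA) in the other paired-end columns. The part of this sum in the calls was not tested. Median-ratio scaling moved the share of higher genes among all paired-end calls from 68.9% to 43.7% in BRCA against AROM, from 41.9% to 57.1% in AROM against WT, from 37.4% to 58.5% in AROM against CERM and from 77.1% to 66.5% in BRCA against WT.

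**Figure D3:**
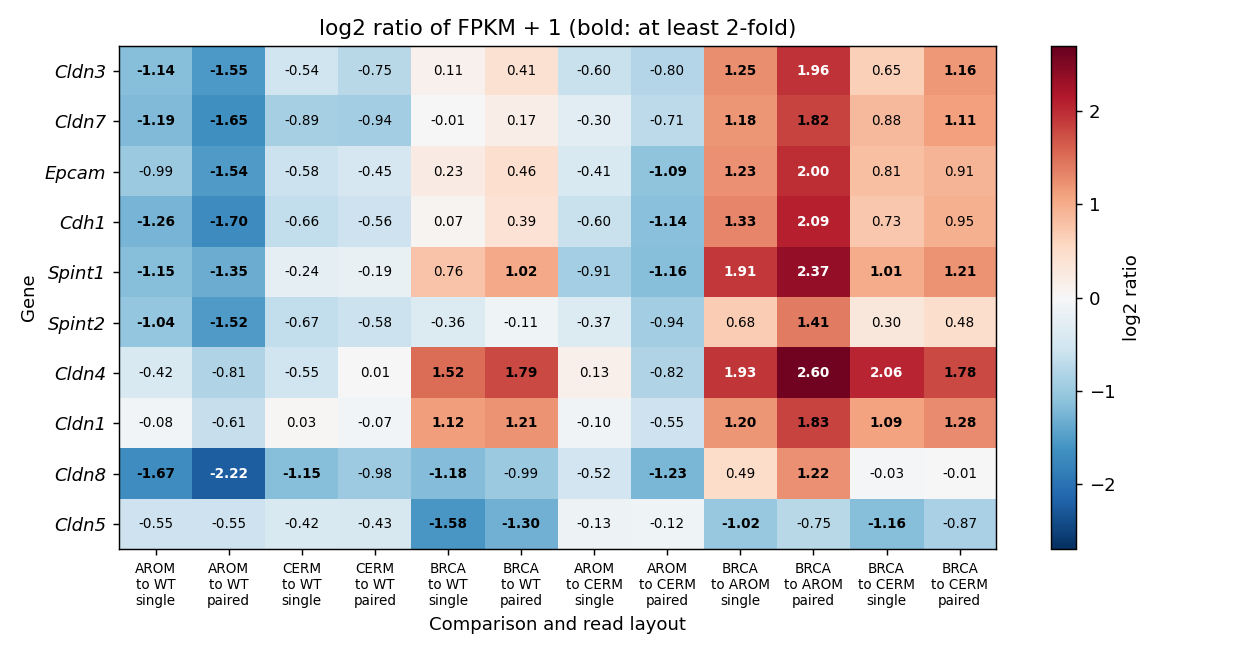
log2 ratio of FPKM + 1 for the 10 genes (rows) in 6 comparisons and 2 read layouts (columns), red for higher and blue for lower in the first-named genotype, with values of at least 2-fold in bold. Cldn4 and Cldn1 are bold and red in every comparison of BRCA, and 6 genes are bold and blue in AROM to WT in both layouts.

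Luminal keratins were low in AROM too, and in CERM with single-end reads. Krt8 was at 211.9 FPKM (WT), 110.7 (AROM), 137 (CERM) and 211.5 (BRCA) with single-end reads, and at 168 FPKM (WT), 63.4 (AROM), 127.9 (CERM) and 208 (BRCA) with paired-end reads. Its partner Krt18 was at 226.5 FPKM (WT), 124.8 (AROM) and 166.7 (CERM) with single-end reads, and at 171, 76.7 and 190.7 with paired-end reads. Krt7 was at 31.5 FPKM (WT), 29.6 (AROM) and 17.7 (CERM) with single-end reads, and at 25.1, 15.99 and 23.1 with paired-end reads. The genes were therefore also expressed relative to the geometric mean of Krt7, Krt8 and Krt18 of each column (Krt19 shared a locus with Krt13 and was not used). On this scale AROM was at 0.691 and 0.698 of WT for Cldn3, 0.772 and 0.713 for Epcam, 0.63 and 0.615 for Cdh1, and 0.653 and 0.627 for Cldn7. These 4 genes were still below WT in AROM relative to the keratins, in both layouts, but none by 2-fold. The size of this gap depends on the keratins used. AROM was at 0.646 and 0.476 of WT by the geometric mean but at 0.537 and 0.413 by the sum of Krt8 and Krt18. Relative to that sum the 4 genes in AROM therefore stood nearer to WT. CERM was at 0.645 and 0.92 of WT by the geometric mean. Per keratin, CERM was at 1.06 and 0.639 of WT for Cldn3 and 1.03 and 0.796 for Epcam. It was at 0.969 and 0.729 for Cdh1, and 0.815 and 0.552 for Cldn7. Cldn8 was the only one of the 10 still 2-fold lower in AROM, at 0.438 and 0.36 of WT per keratin, though against the sum of Krt8 and Krt18 alone it was 2-fold lower only with paired-end reads. The division raised all genes in AROM against WT, to a median log2 ratio of 0.55 and 0.86, with 78 of 11715 and 56 of 11535 genes 2-fold lower and 1173 and 4397 higher. In BRCA, Cldn4 was at 2.83 and 2.76 times WT per keratin, Cldn1 at 2.35 and 2.05 times, Cldn5 at 0.307 and 0.298, and Cldn8 at 0.398 and 0.361. By ratio, without the 1 FPKM added for calls, these 4 were thus still 2-fold apart from WT in BRCA. Cldn3 (1.03 and 1.01) and Cdh1 (1.004 in both) were at the WT level. Over all genes, calls on this scale in BRCA against WT were 271 higher and 235 lower of 11715 with single-end reads. With paired-end reads they were 222 higher and 362 lower of 11535.

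**Figure D4:**
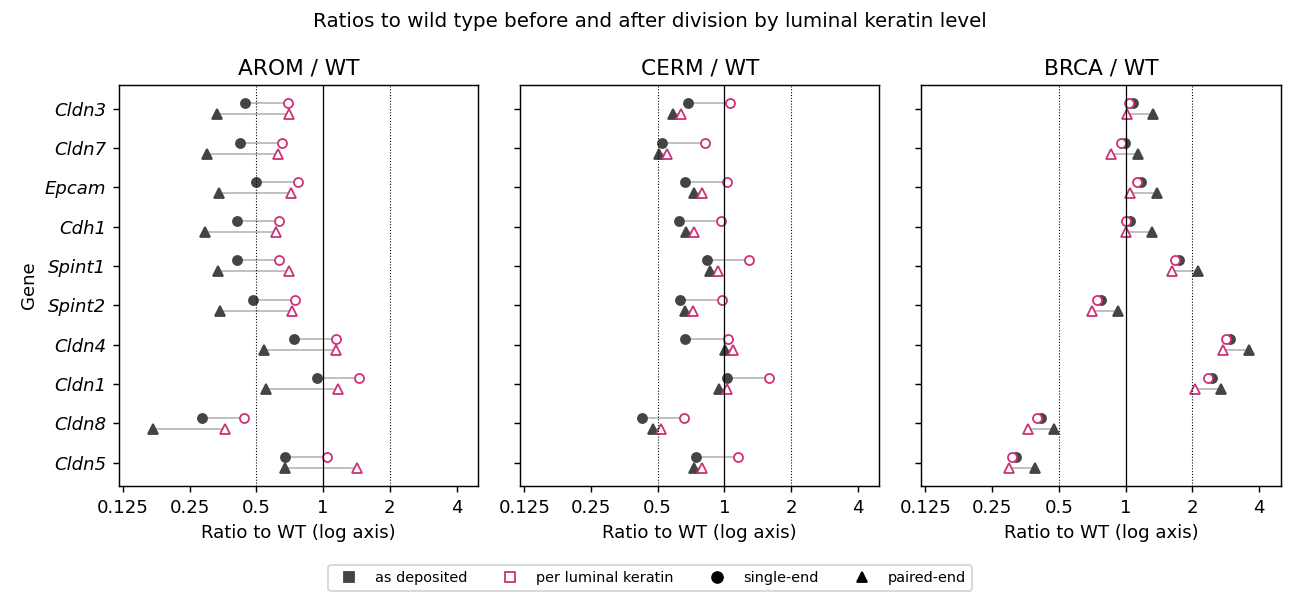
Ratio to WT on a log axis for the 10 genes in AROM, CERM and BRCA, as deposited (dark) and after division by the geometric mean of Krt7, Krt8 and Krt18 (open, coloured), with circles for single-end and triangles for paired-end columns and dotted lines at 2-fold. In AROM only Cldn8 remains past the line at lower values, and Cldn1, Cldn4 and Cldn5 stand above 1, while in BRCA Cldn1, Cldn4, Cldn5 and Cldn8 stay past it.

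Other cell types of the gland also differed between columns. Summed over 10 milk genes, FPKM was 16944 in WT and 2247 in AROM with single-end reads, and 13301 and 1508 with paired-end reads. Summed over 8 adipocyte genes it was 15916 in WT and 24215 in AROM, and 12211 and 29766. Skeletal muscle genes, 8 of 9 with a locus of their own, summed to 11205 in WT, 31845 in AROM and 34550 in CERM with single-end reads, and to 18687, 20856 and 26434 with paired-end reads. Basal myoepithelial genes, 7 of 10, summed to 384.5 in WT and 321 in AROM, and to 299.7 and 197.9. Immune genes, 9 of 11, summed to 32.6 in WT, 55.8 in CERM and 242 in BRCA with single-end reads, and to 21.6, 108.8 and 205.6 with paired-end reads. Epidermal genes, 6 of 9, summed to 23.9 to 35.2 with single-end reads and 17.9 to 35.5 with paired-end reads, with Krt2 at most 0.0079 FPKM in the 8 columns. The part of these differences in the values above was not tested.

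The wider junction machinery was examined through lists. Of 21 other claudin genes, 15 had a locus of their own and 9 of these were below 1 FPKM in all 8 columns. Cldn23 followed the low-AROM shape, at 1.52 FPKM (WT), 0.729 (AROM), 0.872 (CERM) and 1.93 (BRCA) with single-end reads and 1.34, 0.408, 0.771 and 2.07 with paired-end reads. Cldn12 varied little, between 5.38 and 8.83 FPKM over the 8 columns. Cldn19, a claudin of peripheral nerve and kidney, was at 2.22 FPKM in AROM and 0.392 in BRCA with single-end reads, and at 1.17 and 0.481 FPKM with paired-end reads. Cldn10 was at 9.96 FPKM in CERM and 4.38 in AROM with paired-end reads, and in the other order, at 5.998 and 6.83, with single-end reads.

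Of 22 other tight junction genes tested, 2 were 2-fold lower in AROM than in WT with single-end (1.7% of all genes tested) and 7 with paired-end reads (2.83%). The tight junction list had a median of -0.43 and -0.63 and no gene 2-fold higher (2.39% and 2.04% of all). Ocln, the occludin gene, was at 2.09 FPKM in AROM against 5.39 in WT, and at 1.08 against 4.29. Tjp3, which encodes the scaffold ZO-3, was at 11.1 FPKM in AROM against 28.4 in WT, and at 6.40 against 25.8. Tjp3 was low in BRCA too, at 0.463 and 0.533 of WT, where Ocln was at 1.15 and 1.44 times WT. Cgn, encoding cingulin, was at 0.488 and 0.326 of WT in AROM. Ildr1, encoding the tricellular junction protein angulin-2, was at 0.512 and 0.368 of WT in AROM and at 1.76 and 2.15 times WT in BRCA. Of 17 adherens junction and desmosome genes tested, 1 was 2-fold lower in AROM with single-end reads (1.7% of all genes tested) and 2 with paired-end reads (2.83%), with medians of -0.13 and -0.39. The desmoglein gene Dsg2 was lower in both, at 4.98 FPKM against 11.1 and 2.92 against 9.41. In BRCA, Ppl, the periplakin gene, was 2-fold above WT in both layouts (5.97 FPKM against 1.72 and 8.08 against 2.77), as were 2.38% of all genes tested in both. Dsc2 and Evpl, which encode desmocollin-2 and envoplakin, were 2-fold above WT with paired-end reads (4.36% of all genes tested). The values were 5.37 FPKM against 1.76 for Dsc2 and 3.67 against 1.33 for Evpl. With single-end reads they were 5.33 FPKM against 2.30 and 3.82 against 1.42. On the log2(FPKM + 1) scale these came to 0.94 and 0.998, just short of 2-fold.

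Among 11 epithelial transcription factor and splicing regulator genes tested, 5 were 2-fold lower in AROM than in WT with single-end (1.7% of all genes tested) and 6 with paired-end reads (2.83%). The regulator list had a median of -0.93 and -1.37 and no gene 2-fold higher (2.39% and 2.04% of all). Grhl1, a grainyhead-like factor gene, was at 9.10 FPKM in AROM against 29.4 in WT, and at 4.75 against 22.7. Esrp1, which directs epithelial splicing, was at 9.75 FPKM against 22.4 and at 5.35 against 17.99. Elf5, a regulator of alveolar differentiation, was at 39.0 FPKM against 108 and at 21.1 against 90.0, and Ehf, an epithelial ETS factor gene, at 21.3 against 49.4 and at 10.99 against 39.0. In BRCA none of the 11 was 2-fold apart from WT with single-end reads, where 2.97% of all genes tested were higher and 1.94% lower. With paired-end reads 1, Elf3, was higher (4.36% of all) and none lower (1.29%). The 12 mesenchymal genes included the repressors of E-cadherin Zeb1, Zeb2, Snai1 and Snai2, none of which was 2-fold apart from WT in any model. Over all genes tested, at most 4.36% were 2-fold higher and 2.83% lower in any model and layout. In AROM, Prrx1 was 2-fold higher with single-end reads (22.3 FPKM against 9.99) and Twist2 with paired-end reads (7.43 against 2.38), with list medians of 0.43 and 0.28. The shares 2-fold higher over all genes tested were 2.39% and 2.04%. In CERM, Vim, the vimentin gene, and Cdh11, a fibroblast cadherin gene, were 2-fold higher with paired-end reads only, where 3.51% of all genes tested were. Vim was at 673.5 FPKM against 283 there and at 416 against 342 with single-end reads. Fibroblast genes summed to 1484 FPKM in CERM and 585.0 in WT in the paired-end columns, and to 963 and 910.5 in the single-end ones. Their part in the Vim and Cdh11 values was not tested.

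**Figure D5:**
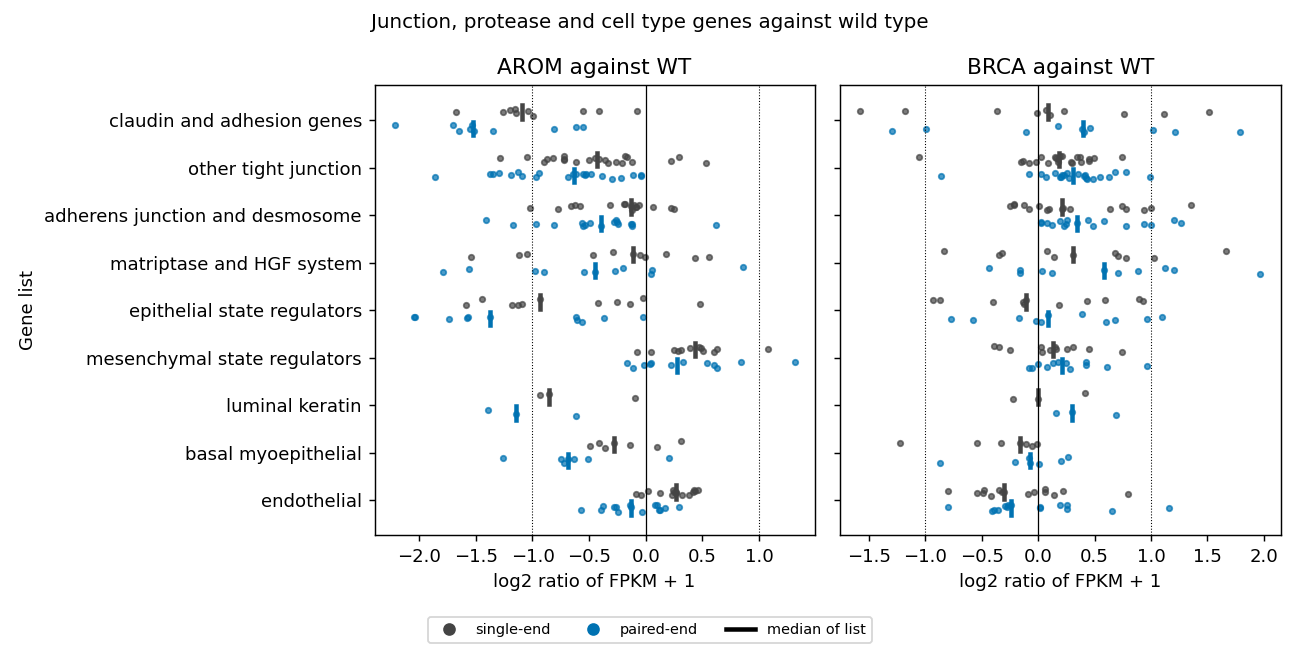
log2 ratio of FPKM + 1 against WT for AROM (left) and BRCA (right); each point is 1 gene, dark for single-end and blue for paired-end columns, with thick bars at the median of each list and dotted lines at 2-fold. Of the lists plotted, the claudin and adhesion genes (medians -1.09 and -1.53) and the epithelial regulators (-0.93 and -1.37) lie furthest left in AROM. The luminal keratins (-0.85 and -1.15) are next, and the medians of the mesenchymal genes lie right of 0 (0.43 and 0.28). The milk genes, not plotted, had lower medians in AROM (-2.43 and -2.22).

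The genes most like these across the 8 columns were ranked by Pearson correlation of log2(FPKM + 1), among 1970 to 1976 genes with a mean of at least 5 FPKM and a range of at least 1 log2 unit. All 8 columns share genotypes and layouts, so the coefficients are descriptions. Closest to the mean of Cldn3, Cldn4, Cldn7, Epcam, Cdh1, Spint1 and Spint2 were Smarcc1, a chromatin remodelling subunit gene (0.998), the basement membrane collagen gene Col4a5 (0.997), Fam60a (0.996), Galnt3, a mucin-type glycosylation enzyme gene (0.996), and Clu, the clusterin gene (0.996). Cacnb3, Ehf and Slc26a2 followed at 0.994, 0.993 and 0.993. Galnt3 was at 9.93 FPKM (WT), 3.78 (AROM), 5.46 (CERM) and 11.3 (BRCA) with single-end reads. Clu, a far more abundant RNA, was at 366 FPKM (WT), 191 (AROM), 276 (CERM) and 477.5 (BRCA).

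Closest to Cldn5 was Trp53 (0.993), of which the BRCA genotype lacks 1 allele by its label, followed by Aox1 (0.985), Fam101b (0.975), Btnl9 (0.97) and Tnfsf11, the RANK ligand gene (0.961). Closest to Cldn8 were Cblc (0.99), Rab4a (0.989), Rspo1, which encodes the Wnt enhancer R-spondin 1 (0.988), Pdcd4 (0.988) and the connexin 26 gene Gjb2 (0.983). Gjb2 was at 72.3 FPKM (WT), 11.98 (AROM), 32.9 (CERM) and 24.9 (BRCA) with single-end reads. Closest to Cldn1 were Smchd1 (0.996), Smurf2 (0.994), Itgb4, the integrin gene of hemidesmosomes (0.993), Ltbp1 (0.989) and Rnf19a (0.988). Itgb4 was at 14.5 FPKM in BRCA and between 6.63 and 7.19 in the other single-end columns.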

How the data were processed

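Per the submitters' processing notes, reads were handled with FastQC, Trim Galore, TopHat and Cufflinks on mouse build mm9; the sources used here give no versions, no strand handling and no way in which libraries were combined. The authors deposited FPKM values, 1 per locus for each genotype and layout. Of 30843 loci, 8119 were unnamed, 585 had several symbols and 1719 shared a symbol; the rest, 1 symbol each, were used, and all 10 genes described matched the reference gene names. From the deposited FPKM the log2 ratio of FPKM + 1 was computed in 12 comparisons, for genes reaching 1 FPKM in 2 or more of the 4 columns of a layout, and called at 2-fold. No test was possible with 1 column per group. The ratio step was run on simulated single-end data with planted changes far past 2-fold in genes well above the filter. That run checks the code only and does not bear on calls near 2-fold or on low genes. Named genes are the 10, up to 4 per list with the largest mean absolute log2 ratio (others are named where a count was small, after their values were seen), and the most correlated genes. A gene that this rule names is not reported here. The 10 genes and the lists were chosen with earlier results of these data known. Alternatives were a pseudocount of 0.1, no filter, median-ratio scaling, quantile normalization and division by luminal keratins; division by Krt8 plus Krt18 was added after seeing the data. Python 3.11.15, pandas 2.3.3 and numpy 2.4.6 were used.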

Additional observations from a re-analysis of the deposited data

How the results depend on the processing

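No paired analysis was possible because each genotype and layout has 1 pooled column, and for the same reason no replicate could be left out. Of 120 ratios (10 genes, 12 comparisons), 118 kept their direction under median-ratio scaling, 117 under quantile normalization, 96 after division by the luminal keratins and 94 after division by Krt8 plus Krt18. Of the 52 calls at 2-fold, 48, 47, 16 and 15 remained in that order. A pseudocount of 0.1 cannot turn a direction, and the filter removed none of the 10 genes, so neither bears on stability. With a pseudocount of 0.1 the count of genes past 2-fold became 1 in single-end AROM against CERM (from 0) and 1 in paired-end CERM against WT (from 0). The latter was 1 under median-ratio scaling and 2 under quantile normalization, and paired-end AROM against CERM went from 4 to 2 under both, with no gene in common. Divided by the luminal keratins, the counts were 1 in AROM against WT (from 6 and 7), 0 in single-end CERM against WT (from 1), 0 in paired-end AROM against CERM, 3 in BRCA against AROM (from 8 and 9) and 2 in BRCA against CERM (from 4 and 5). Divided by Krt8 plus Krt18 they were 0 and 1 in AROM against WT, 0 in single-end CERM against WT, 1 in paired-end AROM against CERM, 3 in BRCA against AROM and 2 in BRCA against CERM. Over all genes this scale gave 56 and 39 lower and 2893 and 6201 higher in AROM against WT. It gave 52 and 866 in single-end CERM against WT, and 77 and 4505 in paired-end AROM against CERM. In BRCA against AROM 2963 and 6409 were lower and 129 and 81 higher. In BRCA against CERM 731 and 543 were lower and 129 and 117 higher. By the luminal keratins 2342 of 11715 and 6064 of 11535 genes were 2-fold lower in BRCA against AROM, and 144 and 86 higher. In BRCA against CERM 1474 and 885 were lower and 86 and 90 higher. Single-end CERM against WT had 48 lower and 1105 higher, and paired-end AROM against CERM 114 and 2928. Cldn5 was a lower gene in both BRCA counts, at 0.294 and 0.21 of AROM and 0.266 and 0.374 of CERM. These divisions remove by construction what a gene shares with the keratins. Some paired-end calls changed sign. Spint2 in BRCA against AROM went to -0.031 (log2) by the keratins and -0.079 by Krt8 plus Krt18, Cldn8 there to -0.036 by the latter, and Epcam and Esrp1 in AROM against CERM to 0.074 and 0.032. With depth unknown, no counting error can be given for low genes such as Cldn1 or Cldn23.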

Other observations

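Several junction genes share a locus with a neighbour in the deposited table and were in no comparison. The locus of Cldn15 and Fis1 was at 105 FPKM (WT), 121 (AROM), 93.5 (CERM) and 81.3 (BRCA) in the single-end columns. That of Cldn22 and Cldn24 was at 5.63 FPKM (WT), 6.13 (AROM), 4.25 (CERM) and 3.02 (BRCA). The Lsr locus, whose gene encodes the tricellular junction protein angulin-1, is merged with Usf2.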
